A study of Cavia porcellus with 10 samples.

Results

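The genes described here are the zinc finger genes of the guinea pig sclera whose symbol begins with ZNF and a digit. The sclera is the tough white wall of the eyeball, made mostly of collagen. Members were chosen by name, with earlier results of these data known. Every line of the deposited scleral count table with such a symbol was considered. For a symbol on several lines only the line with the highest mean count was taken. This gave 278 members among 17642 lines that carry a symbol. The myopia group is male guinea pigs that were fitted with lenses over both eyes to make them nearsighted (lens-induced myopia), and the control group is untreated males; the stated age is 2 to 3 weeks. Each group had 5 RNA-seq libraries of scleral tissue, each from 1 eye and made from total RNA with an mRNA kit. The labels name no strain and give no animal for each eye; the p-values therefore reflect only the spread among these libraries, some of which may be eyes of 1 animal.

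ZNF is a naming convention for proteins with zinc-binding folds, most of them of the Cys2His2 type, in which a row of small fingers reads a stretch of DNA. In mammals the biggest branch carries a KRAB domain in front of the fingers. KRAB binds the scaffold protein TRIM28, which brings in the histone methyltransferase SETDB1 and heterochromatin proteins and silences the bound locus, often a transposable element. Other members activate promoters, serve as chromatin cofactors, or bind RNA and ribosomes, and a few bear the name without being DNA-binding proteins. KRAB genes lie in clusters of near-identical copies, which makes reads hard to assign to 1 gene.

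Library totals lay between 32309258 and 34055139 counts in myopia and between 32568123 and 35430797 in control, and the scaling factors (TMM, which set libraries on 1 scale) between 1.11 and 1.25 in myopia and between 0.777 and 0.968 in control. All 8 fibroblast markers were detected, of which 2 were higher, 2 lower and 4 did not pass, with summed levels of 67943 to 93740 CPM (counts scaled to a common library size) in myopia and 121440 to 151462 CPM in control. The summed level of 4 red blood cell genes was 100 to 456 CPM in myopia and 2504 to 10560 CPM in control (0 higher, 4 lower), that of 7 leukocyte genes 102 to 140 CPM in myopia and 234 to 368 CPM in control (1 higher, 6 lower), and that of 6 photoreceptor and retina genes 30.8 to 189 CPM in myopia and 181 to 331 CPM in control (0 higher, 4 lower). Pigment cell genes split with 2 of 8 higher and 3 lower (48.3 to 221 CPM in myopia and 146 to 430 CPM in control), skeletal muscle genes with 2 of 10 higher and 4 lower (2031 to 4732 CPM in myopia and 2495 to 6801 CPM in control), endothelial genes with 2 of 5 higher and 0 lower (492.7 to 656 CPM in myopia and 465 to 641 CPM in control), and Schwann cell genes with 1 of 5 higher and 2 lower (1945 to 3811 CPM in myopia and 2463 to 2837 CPM in control). No marker was at 0 in every library of a group. The part of these tissues in the ZNF results was not tested, and in whole tissue fewer cells of a type and less RNA per cell cannot be told apart.

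More ZNF genes were higher than lower in the myopic sclera. Of the counts on lines with a symbol, the 278 members held 0.625% to 0.658% in myopia libraries and 0.381% to 0.438% in control libraries. These shares did not overlap between the groups. Of the members, 258 had enough counts to be tested and 20 did not. In edgeR's quasi-likelihood test with Benjamini-Hochberg adjustment over all genes, 150 of the 258 rose in myopia, against 36.9% of all 14683 genes tested, and 53 fell, against 35.1% of all genes; in either direction 71.9% of all genes passed. The median log2 fold change was 0.64 over the tested members and 0.03 over all genes tested. A rise of at least 1 on the log2 scale was seen for 97 members (19.6% of all genes), and a fall of at least that size for 18 (12.6% of all genes). The groups did not overlap for 185 members (57.8% of all genes). The 5 myopia libraries lay entirely above the 5 control libraries for 140 members (29.8% of all genes) and entirely below them for 45 (28.0% of all genes).

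**Figure D1:**
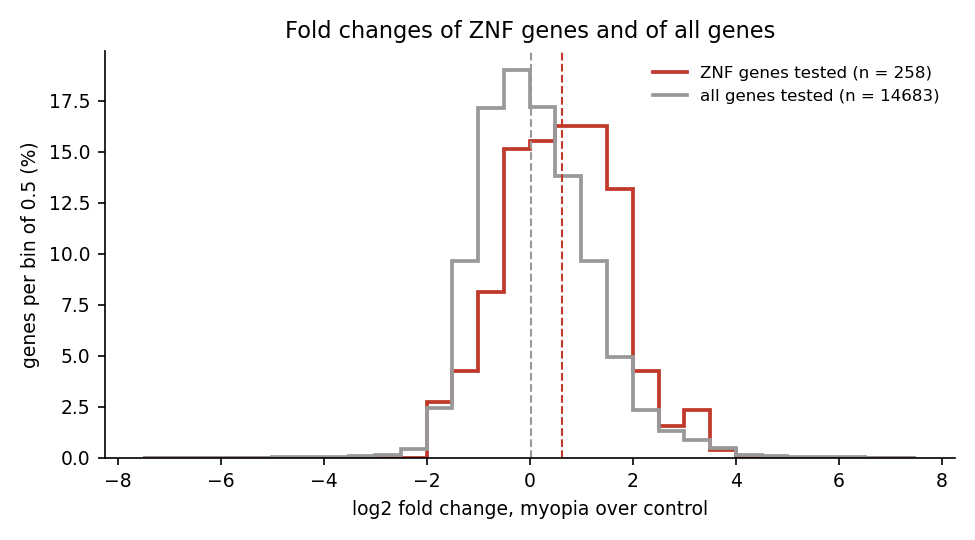
Share of genes (%) in each bin of 0.5 of the log2 fold change, myopia over control, for the 258 ZNF genes tested (red) and all 14683 genes tested (grey), with dashed lines at the medians. The ZNF curve is shifted to the right, with a median of 0.64 against 0.03, and its lower tail overlaps that of all genes.

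These counts depend on the scale on which libraries are compared. With total counts alone the median of all genes moved from 0.03 to 0.47 and that of the ZNF members from 0.64 to 1.08, with 186 members higher and 27 lower. All 150 members that rose on the TMM scale also passed as higher with total counts. Of the 53 that fell, 27 still passed as lower and 11 had a fold change above 0. Over all genes, total counts gave 7633 higher and 2751 lower, against 5412 and 5149 on the TMM scale. All other values below are on the TMM scale unless stated.

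The filter on low counts bears on few of these calls. Of the tested members 255 reached the count minimum of 10 in all 5 myopia libraries, and 245 did so in all 5 control libraries. For 10 members it was reached in all 5 myopia libraries but not in every control library, and for 1 of them in no control library, so those 10 entered the test mainly through the group where they were high. Of the 20 members that were not tested, 15 had more counts in the myopia libraries together and 3 had fewer. ZNF157, for instance, had 43, 8, 27, 31 and 7 counts in myopia libraries 1 to 5 and 6, 2, 0, 8 and 6 in control libraries 1 to 5. ZNF648 had 0 counts in all libraries.

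ZNF644 is the member with the most direct link to the trait: in humans it has been reported as a gene for inherited high myopia, and its protein works with the histone methyltransferases G9a and GLP. Its level was 35.3, 33.8, 38.6, 34.1 and 36.2 CPM in myopia libraries 1 to 5 and 1.89, 4.02, 4.51, 6.40 and 7.93 CPM in control libraries 1 to 5. Every myopia library stood far above every control library, and the control libraries themselves differed several-fold. The log2 fold change was 2.84 ± 0.28 (SE; adjusted p = 2.22e-06). Among all 22 alternative settings it lay between 2.65 and 3.36, and it passed under each.

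The 10 highest fold changes were taken among members that passed, had a mean of at least 2 CPM and did not overlap between groups. They lay between 2.42 and 3.90 on the log2 scale. ZNF33B, a KRAB gene in humans, stood at 23.6, 18.5, 17.6, 21.7 and 13.2 CPM in myopia and at 0.907, 0.775, 0.512, 1.18 and 2.89 CPM in control, a log2 fold change of 3.90 ± 0.38 (SE; adjusted p = 2.31e-06). The groups were far apart, and control library 5 stood above the other controls; without it the fold change was 4.49. ZNF782, ZNF670, ZNF736 and Znf8, also KRAB genes in humans, rose by 3.40 ± 0.32, 3.35 ± 0.47, 3.28 ± 0.39 and 3.09 ± 0.36 on the log2 scale. ZNF568, a KRAB gene whose mouse counterpart silences a placental transcript of Igf2, averaged 11.4 ± 1.45 CPM in myopia and 1.49 ± 0.341 CPM in control (SD, n = 5 each), a rise of 2.93 ± 0.19. ZNF354C rose by 2.63 ± 0.45 and ZNF878 by 2.42 ± 0.26. The remaining genes of the 10 so chosen were ZNF644 and ZNF318. KRAB genes were not counted among the members, so no share of them is given. Those named here were picked by their high fold changes and do not show how KRAB genes moved as a class.

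Several of these control levels were near 1 CPM, and the size of some folds moved with single libraries or lines. Without control library 5 the rises were larger: ZNF670 had a log2 fold change of 4.02 and ZNF736 of 3.93. Without control libraries 4 and 5 together, a choice made after the data were seen, ZNF354C stood at 3.90, Znf8 at 3.92 and ZNF318 at 3.81. ZNF33B, ZNF670, ZNF736 and ZNF878 each have more than 1 line in the table. With all lines of a symbol summed, ZNF670 moved to 2.01 and ZNF878 to 1.70; the direction and the call were kept.

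**Figure D2:**
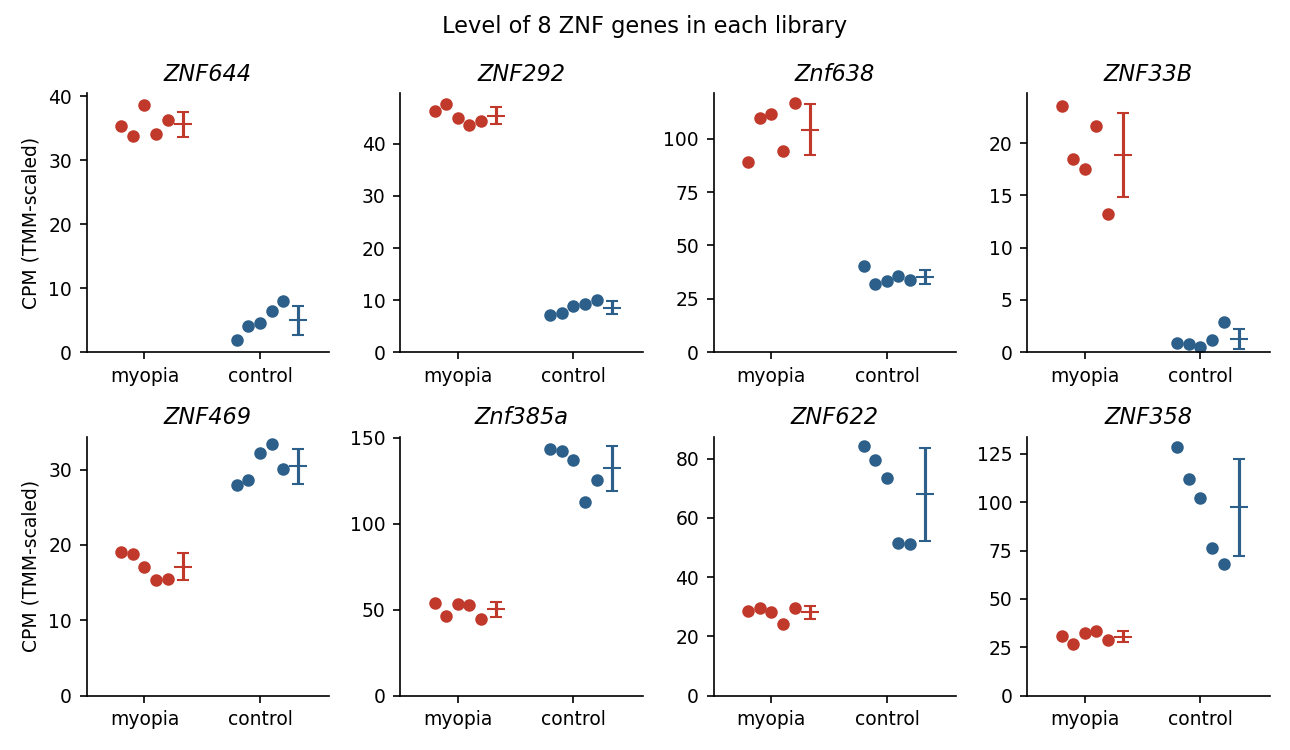
Level in CPM on the TMM scale of 8 ZNF genes in each library, myopia left in red and control right in blue, with libraries 1 to 5 from left to right and the mean ± SD (n = 5 each) beside them. ZNF644, ZNF292, Znf638 and ZNF33B were higher in every myopia library, and ZNF469, Znf385a, ZNF622 and ZNF358 lower in every myopia library, than in any control library.

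Of the members listed as chromatin cofactors 11 of 15 tested were higher, 1 was lower and 3 did not pass, where 36.9% of all genes were higher and 35.1% lower and 58.1% of all tested ZNF members rose. Their median log2 fold change was 0.57, where that of all genes tested was 0.03 and that of all tested ZNF members 0.64. With total counts 14 were higher and 0 lower, where 7633 of all 14683 genes were higher. ZNF292, a very large nuclear protein whose human gene is mutated in a neurodevelopmental disorder, stood at 46.4, 47.7, 45.1, 43.6 and 44.3 CPM in myopia and at 7.10, 7.58, 8.77, 9.19 and 10.1 CPM in control. Both groups were tight and far apart, and the rise of 2.41 ± 0.11 on the log2 scale had the smallest p of all genes named here (adjusted p = 1.56e-08). ZNF318, a nuclear protein needed for IgD expression in mouse B cells, averaged 7.58 ± 1.43 CPM in myopia and 0.832 ± 0.434 CPM in control, a rise of 3.17 ± 0.31. ZNF532 rose by 1.40 ± 0.13, with 97.9 ± 7.89 CPM in myopia and 37.1 ± 7.43 CPM in control. ZNF518A rose by 1.804 ± 0.15, ZNF148, which binds G-rich promoters, by 1.15 ± 0.11, and the SUMO ligase ZNF451 by 0.88 ± 0.09.

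ZNF281, a relative of ZNF148 and a regulator of stem cell genes in mouse, rose by 0.54 ± 0.12 (adjusted p = 0.00096). ZNF217, a corepressor subunit amplified in human breast cancer, had 19.8, 17.0, 12.8, 15.7 and 13.7 CPM in myopia and 10.3, 10.01, 9.59, 14.7 and 15.4 CPM in control. The groups overlapped because control libraries 4 and 5 stood within the myopia range. Its log2 fold change of 0.39 ± 0.17 did not pass (adjusted p = 0.0525), but it passed under 11 of the 22 alternatives, and without control libraries 4 and 5 it was 0.68 (adjusted p = 0.00135). The single member of the list to fall was ZNF687, with 27.1 ± 1.98 CPM in myopia and 41.4 ± 3.39 CPM in control, a log2 fold change of -0.61 ± 0.09. Its binding partner Znf592, at 44.5 ± 4.28 CPM in myopia and 45.4 ± 4.00 CPM in control, did not pass (-0.03 ± 0.09, adjusted p = 0.801). The difference between these partners was not tested.

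Of 7 promoter-binding factors, most of them known as activators, 5 rose and 0 fell, where 36.9% of all genes rose and 35.1% fell. Of all tested ZNF members 58.1% rose and 20.5% fell. The median log2 fold change of the 7 factors was 0.38, where that of all tested ZNF members was 0.64 and that of all genes tested 0.03. With total counts all 7 were higher, as were 7633 of all 14683 genes. ZNF143, which starts transcription at many promoters and of small nuclear RNA genes, stood at 14.8, 14.1, 13.9, 12.5 and 14.4 CPM in myopia and at 6.43, 6.80, 6.998, 9.68 and 10.4 CPM in control. The groups did not overlap, with control libraries 4 and 5 nearest to myopia, and the rise was 0.79 ± 0.15 (adjusted p = 0.000403). Znf76, its close relative, rose by 0.34 ± 0.09. Znf131 rose by 1.63 ± 0.21, ZNF24, a repressor of VEGF in human cells, by 1.07 ± 0.09, and ZNF384, which binds promoters of matrix metalloproteinase genes in rat, by 0.38 ± 0.09. ZNF410, which keeps the chromatin remodeller gene CHD4 active, did not pass (-0.19 ± 0.10, adjusted p = 0.108) and its call moved with the setting. It passed as higher with total counts (0.27, adjusted p = 0.00797). It passed as lower with quality weights (-0.24, adjusted p = 0.0196), without control library 5 (-0.25, adjusted p = 0.0174) and without control libraries 4 and 5 (-0.30, adjusted p = 0.00633).

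Of the members tied to RNA and to ribosomes 4 of 11 rose and 5 fell (5 and 3 with total counts), shares of 36.4% and 45.5% near those of all genes (36.9% and 35.1%). ZNF326, which couples splicing to elongation, stood at 41.9, 42.7, 40.6, 40.1 and 45.9 CPM in myopia and at 14.6, 12.3, 12.3, 14.8 and 16.1 CPM in control, a rise of 1.59 ± 0.10. Znf638, a nuclear protein that takes part in splicing and in silencing of unintegrated retroviral DNA, stood at 89.0, 109, 111, 94.4 and 117 CPM in myopia and at 40.6, 32, 33.5, 35.8 and 33.8 CPM in control, a rise of 1.57 ± 0.10 (adjusted p = 1.37e-07). The nucleolar protein ZNF330 rose by 0.73 ± 0.11 and Znf207, a spindle protein, by 0.40 ± 0.08.

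Those of this list that fell include ZNF622, ZNF593 and Znf598. ZNF622, whose yeast counterpart matures the large ribosomal subunit, stood at 28.7, 29.7, 28.4, 24.3 and 29.4 CPM in myopia and at 84.3, 79.4, 73.3, 51.5 and 51.0 CPM in control. No control library came near the myopia range, but control libraries 4 and 5 were its lowest. The log2 fold change was -1.27 ± 0.14 (adjusted p = 4.57e-06), and that of ZNF593, also a factor of the large subunit, was -1.63 ± 0.17 (adjusted p = 2.02e-06). Znf598, the ubiquitin ligase that senses collided ribosomes, fell by 0.38 ± 0.08 on the log2 scale, a difference that was 0.07 and did not pass with total counts. Znf385a, which binds messenger RNA and p53, averaged 50.1 ± 4.44 CPM in myopia and 132 ± 13.1 CPM in control, a log2 fold change of -1.40 ± 0.10 (adjusted p = 1.81e-07). ZNF706, a very small protein, fell by 0.47 ± 0.08.

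**Figure D3:**
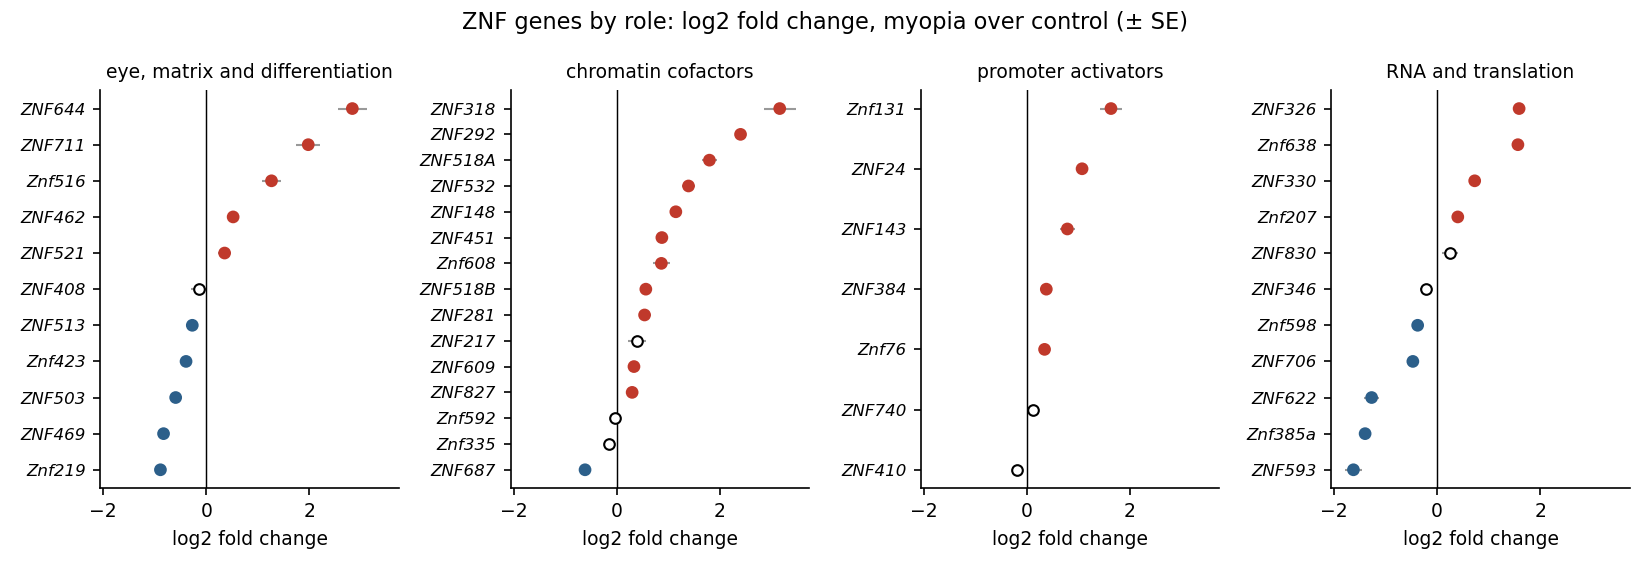
Log2 fold change, myopia over control, ± SE, of the tested ZNF genes in 4 role lists. Red points rose, blue points fell and white points did not pass an adjusted p of 0.05; of the chromatin cofactors 11 of 15 and of the promoter-binding factors 5 of 7 are red, and the other lists have 5 blue points each.

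Of the members with known roles in the eye, the matrix or cell differentiation 5 of 11 rose and 5 fell (5 and 2 with total counts), where 36.9% of all genes rose and 35.1% fell. ZNF469, whose loss in humans causes brittle cornea syndrome, with a thin and fragile cornea, stood at 19.0, 18.8, 17.1, 15.3 and 15.5 CPM in myopia and at 28.0, 28.6, 32.2, 33.4 and 30.1 CPM in control. Every myopia library was below every control library, and control libraries 4 and 5 did not stand toward myopia. The log2 fold change was -0.83 ± 0.10 (adjusted p = 7.01e-06) and remained negative, at -0.39, with total counts (adjusted p = 0.00685). Znf219, a partner of the cartilage regulator SOX9 in mouse, fell by 0.89 ± 0.10 on the log2 scale. ZNF503, a transcriptional repressor related to ZNF703, fell by 0.59 ± 0.10, but with total counts its value was -0.15 and missed the threshold (adjusted p = 0.221).

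Regulators of mesenchymal and fat cell fate were among the genes of that list. ZNF521, a regulator of mesenchymal progenitors, stood at 255, 301, 223, 189 and 218 CPM in myopia and at 177, 185, 167, 206 and 191 CPM in control. Myopia library 4 lay within the control range and the other myopia libraries above it, and the log2 fold change was 0.36 ± 0.12 (adjusted p = 0.0161; 0.000080 to 0.0464 over the alternatives). Znf423, its close relative and a partner of SMAD proteins, averaged 48.2 ± 3.81 CPM in myopia and 63.2 ± 5.47 CPM in control, giving -0.39 ± 0.09 on the log2 scale (adjusted p = 0.00124), which became 0.05 with total counts. The difference between these 2 relatives was not tested. Znf516, which promotes brown fat in mouse, rose by 1.27 ± 0.18, and ZNF711, a human X-linked intellectual disability gene, by 1.98 ± 0.23. ZNF408, a human retinal vessel disease gene, did not pass (-0.14 ± 0.16, adjusted p = 0.425).

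The 10 lowest fold changes, chosen under the same limits as the 10 highest, lay between -1.75 and -1.26 on the log2 scale. ZNF683 (-1.80 ± 0.60) and ZNF784 (-1.27 ± 0.37) also passed as lower, but their groups overlapped and they were left out. ZNF580 stood at 17.2, 17.2, 17.4, 16.2 and 21.8 CPM in myopia and at 80.8, 71.4, 65.0, 46.8 and 37.4 CPM in control, a log2 fold change of -1.75 ± 0.19 (adjusted p = 3.15e-06). ZNF358 stood at 30.9, 26.5, 32.5, 33.5 and 28.8 CPM in myopia and at 129, 112, 102, 76.3 and 68.0 CPM in control, a log2 fold change of -1.68 ± 0.16. In both genes the myopia libraries lay close together, while control libraries 4 and 5 were the lowest controls. ZNF296, ZNF428, Znf787, Znf524, a telomere-binding protein in humans, and Znf865 had log2 fold changes of -1.72 ± 0.27, -1.59 ± 0.13, -1.53 ± 0.14, -1.38 ± 0.18 and -1.26 ± 0.12. With total counts the fold changes of the 10 members so chosen lay between -1.27 and -0.80 and all passed.

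Of the 5 members with the highest mean CPM 1 rose, 3 fell and 1 did not pass. Of all genes tested with a mean over 50 CPM, 25.5% rose and 56.2% fell. CPM is not per length of transcript, so levels of different genes are not compared here. The 5 members were ZNF521, Znf385a, Znf219, Znf185 and ZNF512. Znf185, an actin-associated LIM-domain protein despite its name, averaged 55.8 ± 5.02 CPM in myopia and 112 ± 12.04 CPM in control, a log2 fold change of -0.999 ± 0.096 (adjusted p = 1.38e-06). ZNF512, at 77.9 ± 4.19 CPM in myopia and 71.5 ± 5.05 CPM in control, did not pass (0.12 ± 0.08, adjusted p = 0.169), nor did ZNF512B, ZNF862, ZNF740 and ZNF576, with log2 fold changes of 0.15, -0.06, 0.12 and -0.20 and adjusted p values of 0.19, 0.599, 0.147 and 0.0784. With total counts all 5 passed as higher, at 0.57, 0.59, 0.39, 0.56 and 0.26.

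Median fold changes differed between classes of level, in ZNF genes and in all genes. Among the 45 tested members with a mean of up to 5 CPM, 30 rose and 4 fell; the median log2 fold change was 1.13, against 0.36 over all genes at that level, of which 36.2% rose and 16.3% fell. This class holds all 10 members that met the count minimum in every myopia library but not in every control library, and 0 of the opposite kind, so the filter bears on its counts. At 10 to 20 CPM, 45 of 74 rose and 12 fell, with a median of 0.68, against 0.19 over all genes at that level, of which 44.3% rose and 29.5% fell. Above 50 CPM, 7 of 22 rose and 11 fell, where 56.2% of all genes at that level fell, and the medians were -0.18 for members and -0.39 for all genes. The median of the members lay above that of all genes in each of the 5 level classes.

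**Figure D4:**
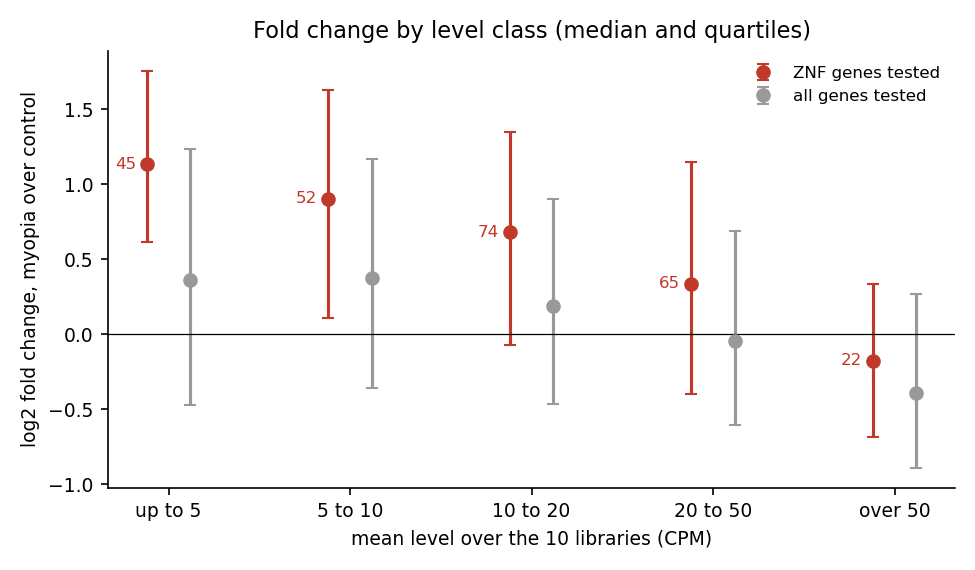
Median log2 fold change, myopia over control, with quartiles, in 5 classes of mean level (CPM), for ZNF genes tested (red, with the number of genes) and all genes tested (grey). ZNF medians are lower in each higher class, with 1.13 in the lowest and -0.18 in the highest; those of all genes are 0.36 and -0.39 there.

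ZNF symbols on several lines of the table moved almost entirely upward. Of the 278 symbols 32 stand on more than 1 line and have 115 further lines beside the main one. Among the main lines of such symbols 29 of 31 tested rose and 0 fell, the median log2 fold change being 1.30, while members on a single line rose in 121 of 227 cases and fell in 53, the median being 0.45. Among genes other than ZNF, 41.6% of the first lines of repeated symbols rose and 27.2% fell, and of genes on 1 line 35.5% rose and 36.6% fell. Of the 106 further lines tested, which are not members, 99 rose and 1 fell, with a median of 1.59. Among further lines of symbols other than ZNF, 46.0% of 450 rose. Whether these lines share reads was not tested, so they are not taken as independent of one another.

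The symbols with the most lines were ZNF136 and ZNF441 with 15 each, ZNF878 with 14, ZNF627 with 13 and ZNF20 with 11, all of them KRAB genes in humans that lie in a cluster there. Of their 68 lines 65 were tested, 64 rose and 0 fell. Of all genes 36.9% rose, and of further lines of symbols other than ZNF 46.0% rose. Lines of 1 symbol are not taken as separate rises. The main line of ZNF136 averaged 40.0 ± 6.14 CPM in myopia and 13.5 ± 2.04 CPM in control, a rise of 1.56 ± 0.13 on the log2 scale, and over its 15 lines the rise lay between 1.21 and 3.51. For ZNF441 the main line rose by 1.83 ± 0.12 and the lines lay between 0.99 and 3.29. ZNF20 averaged 44.8 ± 2.69 CPM in myopia and 15.0 ± 0.827 CPM in control on its main line, a rise of 1.58 ± 0.08. How the authors' counting shared reads among such copies is not stated in the sources used here, and the value of a single line is uncertain.

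**Figure D5:**
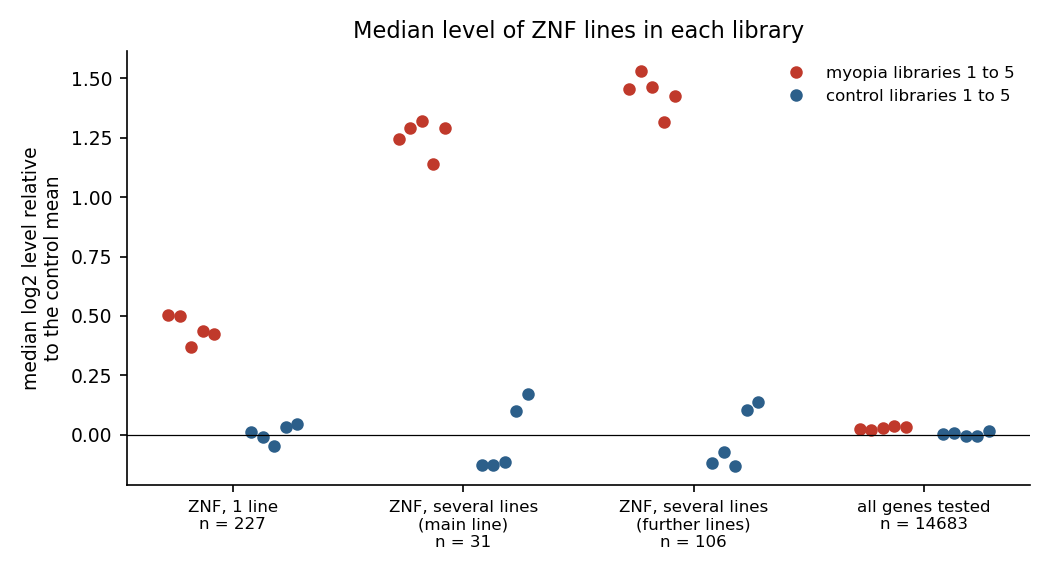
Median log2 level relative to the mean of the 5 control libraries (y axis) in each myopia library (red) and control library (blue), libraries 1 to 5 from left to right, for ZNF genes on 1 line, main and further lines of ZNF symbols on several lines, and all genes tested. The medians of myopia libraries lie between 0.37 and 0.50 for genes on 1 line and between 1.31 and 1.53 for further lines, and near 0 for all genes.

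The control libraries were not uniform for the ZNF genes. Relative to the control mean, the median log2 level of the 258 tested members lay between 0.54 and 0.65 in the myopia libraries, and in control between -0.06 in library 3 and 0.08 in library 5. Control library 5 was the highest of the controls for 94 members (36.4%), against 33.5% of all genes tested, and control library 3 for 19 (7.36%), against 14.0%. The share for control library 5 was thus near that of all genes. With total counts it was the highest for 152 members (58.9%), against 49.98% of all genes. What the library numbers stand for is not stated.

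The spread among controls ran the same way as the group difference in both directions. For the 150 members that rose, the median log2 level relative to the control mean was 1.09 to 1.22 in the myopia libraries, against -0.11, -0.11, -0.11, 0.08 and 0.21 in control libraries 1 to 5. For the 53 that fell it was -0.80 to -0.67 in myopia, against 0.21, 0.15, 0.05, -0.11 and -0.29 in control libraries 1 to 5. Both sets were chosen with the same control libraries, so these medians are a description with no test. The same medians were not computed for other genes that rose or fell, so this order is not shown to be particular to ZNF genes. The TMM factors, which are set over all genes tested, also differed in order: 0.777, 0.814, 0.846, 0.884 and 0.968 in control libraries 1 to 5. In 8 members (3.10%) each control library in the order of the numbers was higher than the one before, against 4.66% of all genes. With total counts this held for 26 members and 10.7% of all genes, and with lines of a symbol summed for 12 members. The 8 were Znf131, ZNF143, Znf280d, ZNF287, ZNF292, ZNF354C, ZNF644 and ZNF706, named after their values were seen. ZNF706 differs from the others in that it was lower in myopia, with 43.3, 40.3, 47.7, 42.3 and 41.0 CPM there and 55.8, 56.6, 59.6, 60.9 and 64.7 CPM in control libraries 1 to 5. Without control libraries 4 and 5, 159 of 261 members tested rose and 57 fell, and of 14957 genes 5734 rose and 5185 fell.

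The list of partners through which KRAB proteins silence DNA was broad and also held other silencing genes, such as EHMT1, EHMT2, WIZ, DNMT1 and UHRF1. Of this list 8 of 25 tested were higher, 10 were lower and 7 did not pass. The shares of 32% and 40% are near those of all genes (36.9% higher and 35.1% lower). The median log2 fold change was -0.05 (0.02 with upper-quartile factors), and with total counts 16 were higher and 5 lower (7633 and 2751 of all 14683 genes). TRIM28, the scaffold that KRAB domains bind, stood at 78.3, 70.7, 72.6, 80.1 and 74.3 CPM in myopia and at 178, 180, 164, 141 and 129 CPM in control. All myopia libraries were below all control libraries, and the log2 fold change of -1.07 ± 0.10 (adjusted p = 1.33e-06) was -0.61 with total counts. SETDB1, the histone methyltransferase that TRIM28 recruits, was at 30.3 ± 1.25 CPM in myopia and 26.4 ± 3.18 CPM in control and did not pass (0.20 ± 0.10, adjusted p = 0.0784). Its nuclear partner ATF7IP rose by 1.26 ± 0.09. The HUSH silencing complex subunits TASOR and MPHOSPH8 rose by 2.06 ± 0.17 and 0.87 ± 0.09, and the heterochromatin protein gene CBX3 by 0.88 ± 0.09. TRIM28, ATF7IP, TASOR, MPHOSPH8 and CBX3 were the 5 of the list with the smallest p and do not show its balance, as 10 of the list fell. The log2 fold changes of the list lay between -1.52 and 2.56.

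Zinc finger families with other names were counted beside all genes, of which 36.9% rose and 35.1% fell. Of 41 ZBTB genes 24 rose and 11 fell, of 8 ZSCAN genes 5 rose and 2 fell, of 6 ZKSCAN genes 5 rose and 0 fell, and of 16 ZFP genes 11 rose and 3 fell. The KLF family, whose members have a short row of fingers, had 7 of 14 higher and 3 lower. The median log2 fold changes were 0.49, 0.85, 0.97, 1.01 and 0.27 in that order, against 0.03 over all genes tested.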

How the data were processed

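RNA-seq of guinea pig sclera was analysed from the raw counts of reads per gene line that the authors deposited, 5 myopia and 5 control libraries. No source used here states the aligner, counter, annotation or strand setting; per the submitters' processing notes the mouse builds GRCm38 and mm10 were named, without a role. No coordinate or sequence is therefore given; 217 of the 278 member symbols were found in a RefSeq table of assembly mCavPor4.1.

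Of 18079 lines 437 carry no symbol (0.751% to 0.824% of counts in myopia, 1.18% to 1.69% in control) and were left out. Each other line was tested as a gene with edgeR 4.0.16 in R 4.3.3: filterByExpr (minimum count 10, minimum total 15), TMM factors, robust quasi-likelihood fit, 1 factor for group, Benjamini-Hochberg adjustment over 14683 genes, threshold 0.05. The SE was taken as log2 fold change over the root of the F statistic; CPM are TMM-scaled. Per-library medians use log2(CPM + 0.5). The test was tested on simulated data.

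Members, role lists and named genes were chosen with earlier results of these data known. Named were the 10 highest and 10 lowest fold changes (passed, mean of at least 2 CPM, no overlap), the 5 of highest mean CPM overall and among those that did not pass, up to 6 per role list by p, up to 5 silencing partners by p, and 12 fixed genes. Others are named for single counts, or after their values were seen. A list of 4 nuclear-retained RNAs had 0 members in the table. Protein features were not analysed here. Alternatives were RLE, upper-quartile and total-count scaling, other filters, DESeq2 1.42.0, limma-voom (limma 3.58.1) with and without quality weights, no robust estimation, a replicate block, summed lines, each library left out, and, added later, control libraries 4 and 5 left out. Libraries of a group were compared for copies; chi-square over its degrees of freedom was 18.7 to 122, far above counting noise.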

Additional observations from a re-analysis of the deposited data

Results flagged for a closer look

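Among 104 groups of 5 libraries checked (the named ZNF genes, the ZNF share of counts and the ZNF median), 5 had a library set apart from the other 4 by Dixon's criterion, which by chance flags about 1 in 20. In control library 5, ZNF736 stood at 2.31 CPM, with the other controls at 0.388 to 0.787 CPM, and ZNF33B at 2.89 CPM, with the other controls at 0.512 to 1.18 CPM. ZNF580 stood at 21.8 CPM in myopia library 5, with the other myopia libraries at 16.2 to 17.4 CPM. ZNF622 stood at 24.3 CPM in myopia library 4, with the others at 28.4 to 29.7 CPM. ZNF24 stood at 20.4 CPM in control library 3, with the other controls at 23.7 to 24.3 CPM.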

How the results depend on the processing

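Under 22 alternatives, the count of ZNF genes higher in myopia stayed within 1.5 times of 150, and that of genes called overall within 1.5 times of 10561. With total counts alone 27 members were lower in place of 53, and control library 5 was the highest control for 152 members in place of 94. The ZNF median of 0.64 became 0.71 with upper-quartile factors, 1.08 with total counts, 0.73 without a filter and 0.73 without control libraries 4 and 5. Leaving out 1 library at a time gave medians of 0.62 to 0.69, with 149 to 155 members higher and 51 to 58 lower. Fold changes turned positive with total counts for ZNF576 (0.26), ZNF410 (0.27), Znf423 (0.049), Znf598 (0.075) and ZNF862 (0.39). The median of all genes was 0.47 on that scale. With upper-quartile factors ZNF862 (0.015) turned positive, where the median of all genes was 0.098. Of 56 named genes 45 kept call and direction under every alternative. Same-numbered myopia and control libraries did not deviate together (correlations of -0.13 to 0.01). No pairing by number was seen, but such correlations cannot exclude one. With a replicate block 147 members were higher and 50 lower. The 20 members that were not tested had too few counts to pass the filter, and the part of depth in this was not tested.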
